A study of Homo sapiens with 12 samples.

Results

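The genes described here are REEP6 and 9 of its relatives and partners in shaping the endoplasmic reticulum (ER): REEP2, REEP3, REEP4, REEP5, the atlastins ATL2 and ATL3, the reticulons RTN3 and RTN4, and the junction protein LNPK. The set was chosen by measured values, since REEP6 was picked because its value was far lower under FASRL knockdown in both cell lines, and the other 9 were added by name. All 10 members were among the 8842 genes listed. Another 2 listed genes of the same families, REEP1 and RTN2, are described beside them, which makes 12, and 2 further family genes, ATL1 and RTN1, were not analysed here.

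REEP, reticulon and atlastin proteins give the tubular ER its form. REEP and reticulon proteins insert hairpins into the outer leaflet of the membrane and bend it into tubules, atlastins are GTPases that fuse tubules into a network, and lunapark, encoded by LNPK, sits at the junctions where tubules meet. Within the REEP family, REEP1 to REEP4 form a branch with links to microtubules and REEP5 and REEP6 form the other, and the liver cell relies on an extended ER for secreting plasma proteins and for making lipids.

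The study measured mRNA in the liver cancer cell lines HepG2 and LM3, after transfection with a small interfering RNA against the long noncoding RNA FASRL (siFASRL) or with a negative control siRNA (siNC), and asked how FASRL acts on lipid metabolism. The labels do not say which of the study's siRNAs against FASRL was used. RNA was taken 48 h after transfection. There were 4 groups of 3 libraries: HepG2 siNC, HepG2 siFASRL, LM3 siNC and LM3 siFASRL. The labels do not say that the 3 libraries of a group came from separate cultures, so p-values measure only the spread between these libraries, which may be technical. FASRL itself was not analysed here, so the level of the target in these libraries was not checked here. Values are normalized expression values per gene from RSEM. Their unit is not named in the sources used here. Orders, ratios and shares between genes therefore assume values given per length of the gene. The sums over the listed genes were 333193 to 338379 in HepG2 siNC and 347211 to 355094 in HepG2 siFASRL. In LM3 they were 316534 to 321859 under siNC and 346884 to 348573 under siFASRL. Every siFASRL sum was thus above every siNC sum of its line. The sequencing depth behind them is unknown.

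Both lines carry the same label of liver, and their hepatocyte markers differed. Of 15 hepatocyte markers 13 were listed, and their summed value was 5013, 4944 and 4534 in the HepG2 siNC libraries and 15.5, 20.2 and 18.3 in the LM3 siNC libraries. In LM3 most of that sum came from the transcription factor HNF4A, at 14.4, 14.4 and 14.2, a gene named after its values were seen. The secreted liver proteins albumin (ALB), alpha-fetoprotein (AFP), apolipoprotein A1 (APOA1), transthyretin (TTR) and alpha-1-antitrypsin (SERPINA1) were at 1.73 or less in every LM3 library. In LM3 siNC, ALB had values of 0.06, 0.62 and 0.40, with a mean of 0.36 against 815 in HepG2 siNC. SERPINA1, the highest of these in LM3 siNC, had values of 0.08, 1.73 and 1.26 there, with a mean of 1.02 against 1393 in HepG2 siNC. Under siFASRL the summed hepatocyte markers were 2634, 2653 and 2701 in HepG2 and 8.1, 8.1 and 6.92 in LM3, below every siNC library of the same line. In HepG2 12 of the 13 were called lower, where 44.3% of all genes tested were, and 1 (APOA2) higher, where 44.8% were. In LM3 HNF4A alone of these markers was tested, and it was called lower. The part of these markers in the differences of the ER genes was not tested. In bulk RNA, fewer cells that express a gene and less RNA per cell cannot be told apart.

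Fibroblast and immune markers were also expressed, with higher sums in HepG2 than in LM3. Of 7 fibroblast markers 5 were listed, with a sum of 70.6 to 72.2 in HepG2 siNC, led by COL3A1, 32.3 to 35.4 in HepG2 siFASRL, 13.2 to 15.1 in LM3 siNC and 4.69 to 5.86 in LM3 siFASRL. Of 6 immune markers 3 were listed, with a sum of 122 to 127 in HepG2 siNC, led by LYZ, 94.1 to 105 in HepG2 siFASRL, and 15.2 to 19.1 in the LM3 libraries, led there by CD68. The lower HepG2 sum did not hold for each marker, since LYZ was called lower, CD68 was not called and CD79A was called higher. In LM3 LYZ was called lower and CD68 higher. The single endothelial marker listed of 6, VWF, was at 0.35 or below in every library.

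REEP6 was the member for which the set was picked. It lies at chr19:1490747-1497927 on the plus strand of GRCh38. In HepG2 its value was 13.9, 15.5 and 16.0 under siNC and 3.44, 3.42 and 2.96 under siFASRL. In LM3 its value was 12.7, 13.1 and 13.6 under siNC and 3.74, 4.12 and 3.86 under siFASRL. All 6 siNC libraries were high and all 6 siFASRL libraries were low, with no overlap in either line. Under siFASRL 21.6% of the siNC mean remained in HepG2, and 29.7% in LM3. On the log2(value + 1) scale, which understates the change of low genes, the difference was -1.92 (SE 0.07) in HepG2 and -1.53 (SE 0.05) in LM3, which placed REEP6 at rank 46 of 8144 tested genes from the most lowered in HepG2 and at rank 85 of 7483 in LM3. These values are a description with no test, because they chose the gene.

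REEP5, the other gene of the REEP6 branch, went the opposite way. It had values of 24.3, 22.7 and 25.4 in HepG2 siNC and 32.0, 29.6 and 31.6 in HepG2 siFASRL. In LM3 the values were 20.7, 18.3 and 18.8 under siNC and 23.1, 23.3 and 23.6 under siFASRL. Every siFASRL library was above every siNC library of its line, by 0.35 (SE 0.06) in HepG2 and 0.27 (SE 0.06) in LM3 on the log2 scale. The ratio of REEP6 to REEP5 was 0.628 ± 0.055 (SD, n = 3) in HepG2 siNC and 0.106 ± 0.011 in HepG2 siFASRL, and 0.685 ± 0.061 in LM3 siNC and 0.167 ± 0.008 in LM3 siFASRL. Much of its fall came with the choice of REEP6. REEP5 lies opposite to SRP19, a subunit of the signal recognition particle, and their annotated exons share 368 bases. SRP19 had a mean of 15.9 ± 2.63 (SD, n = 3) in HepG2 siNC and 29.1 ± 1.3 in HepG2 siFASRL, and 25.4 ± 2.06 and 28.1 ± 0.726 in the same groups of LM3. The counting is not stated to use strand, so reads of REEP5 and SRP19 over the shared exons cannot be told apart.

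REEP3 and REEP4, which keep ER membrane away from chromosomes during mitosis, were lower under siFASRL by less than REEP6. REEP3 had values of 25.0, 22.8 and 25.8 in HepG2 siNC and 16.6, 15.7 and 16.9 in HepG2 siFASRL, and in LM3 19.7, 17.6 and 16.7 under siNC and 12.8, 12.8 and 13.3 under siFASRL. REEP4 had values of 27.5, 28.8 and 30.2 in HepG2 siNC and 21.9, 18.9 and 19.3 in HepG2 siFASRL, and in LM3 29.7, 29.1 and 31.2 under siNC and 25.2, 25.6 and 24.2 under siFASRL. The groups of both genes did not overlap in either line. For REEP3 66.8% of the control mean remained in HepG2 and 72.0% in LM3, and for REEP4 69.5% and 83.4%. REEP3 differed by -0.55 (SE 0.06) in HepG2 and -0.44 (SE 0.07) in LM3, and REEP4 by -0.51 (SE 0.07) and -0.25 (SE 0.05).

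REEP1 and REEP2, best known from neurons and from hereditary spastic paraplegia, were each high in a single line. REEP2 had values of 7.64, 7.62 and 8.42 in HepG2 siNC and 9.98, 8.34 and 8.56 in HepG2 siFASRL, and 0.09 or less in every LM3 library. The HepG2 groups overlapped, and the LM3 values were too low for REEP2 to enter the LM3 comparison. REEP1 had values of 8.71, 9.35 and 9.42 in LM3 siNC and 3.14, 3.14 and 3.52 in LM3 siFASRL, and 1.37, 1.56 and 1.38 in HepG2 siNC against 0.31, 0.87 and 0.63 in HepG2 siFASRL. REEP1 fell by 1.25 (SE 0.06) on the log2 scale in LM3 (limma, adjusted p = 6.38e-07), lower in 3 of 3 siFASRL libraries. In HepG2 it passed the filter on low values through the siNC group alone, so its difference there of -0.62 (SE 0.11) is given as a value, and with quantile normalization it was -0.24.

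**Figure D1:**
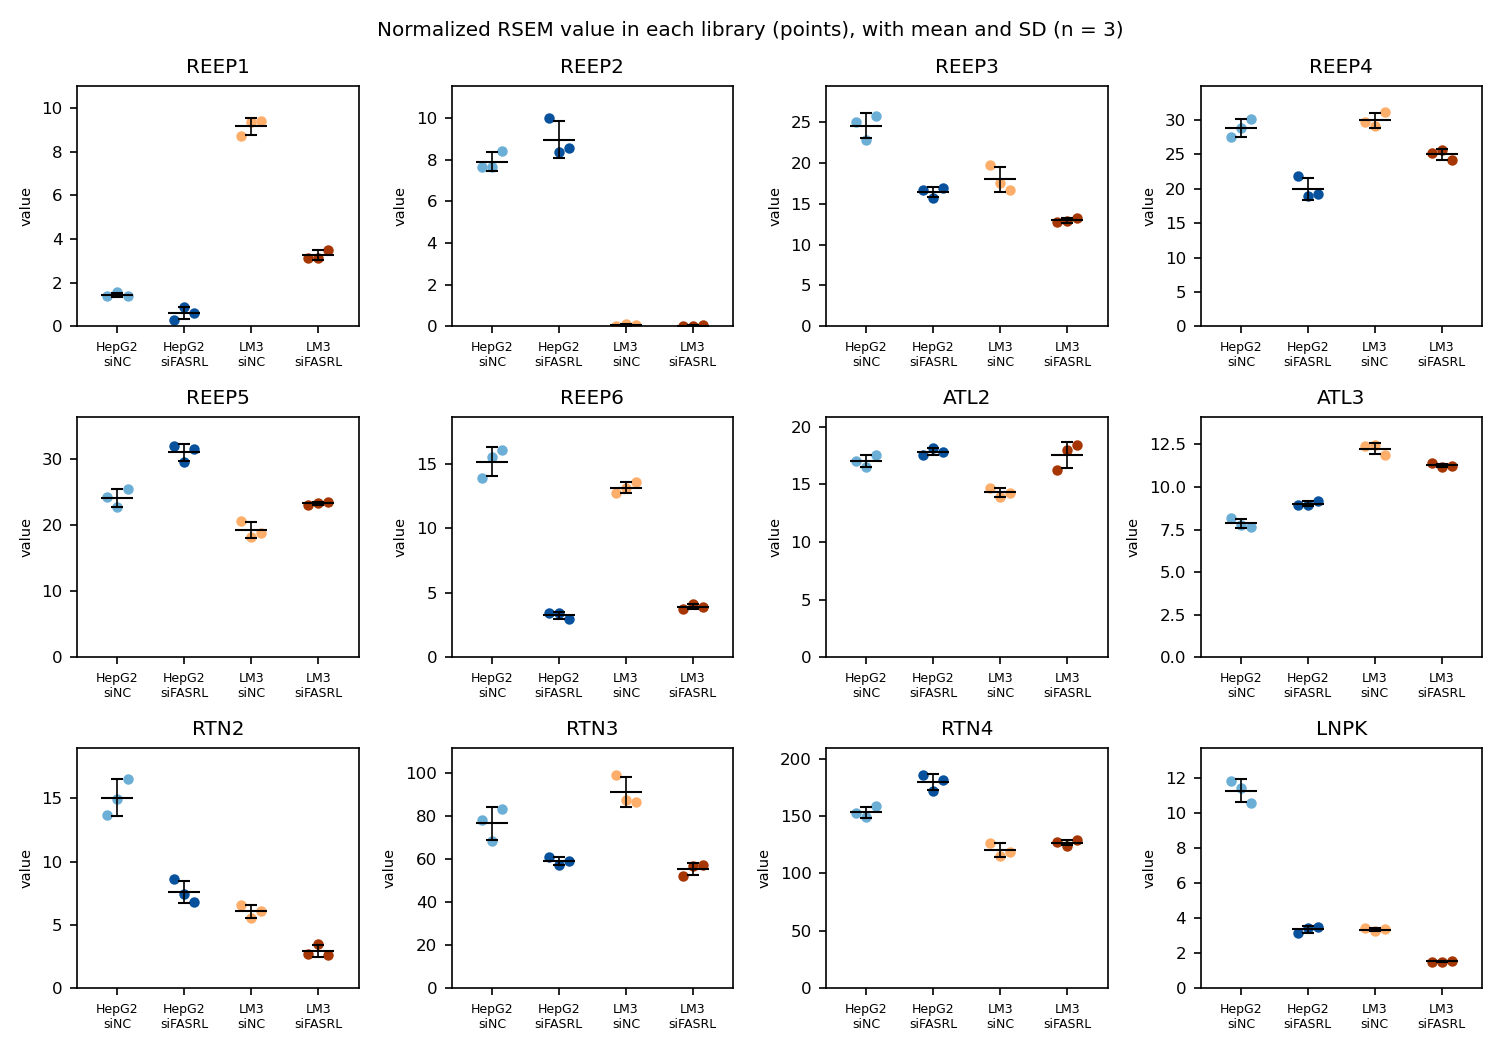
Normalized RSEM value (vertical axis, starting at 0) of the 12 family genes in each of the 4 groups; each point is a library, and the bar shows the mean with the SD (n = 3). REEP6 sits between 13.9 and 16.0 in HepG2 siNC and between 2.96 and 3.44 in HepG2 siFASRL, LNPK is low in 3 of the 4 groups, and REEP5 is higher under siFASRL in both lines.

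The family total followed REEP6 only in part. The summed value of REEP1 to REEP6 was 102 ± 4.53 (SD, n = 3) in HepG2 siNC and 80.3 ± 3.71 in HepG2 siFASRL, and 89.6 ± 2.02 in LM3 siNC and 68.5 ± 0.561 in LM3 siFASRL. Without REEP6 the sum was 86.8 ± 3.9 and 77.0 ± 3.69 in HepG2, and 76.4 ± 2.24 and 64.6 ± 0.37 in LM3. The siFASRL sums were below the siNC sums in every library of both lines, with REEP6 or without it. REEP6 made up 14.8 ± 0.864% of the family sum in HepG2 siNC and 14.7 ± 0.675% in LM3 siNC, and the libraries of the 2 lines overlapped. Under siFASRL the share was 4.08 ± 0.374% in HepG2 and 5.7 ± 0.237% in LM3, while that of REEP5 went from 23.7% to 38.7% in HepG2 and from 21.5% to 34.1% in LM3. REEP6 was picked for its low values under siFASRL and is part of the sum. The lower share of REEP6 and part of the higher share of REEP5 came with that choice. The mean of REEP5 itself went from 24.1 to 31.1 in HepG2 and from 19.3 to 23.3 in LM3.

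**Figure D2:**
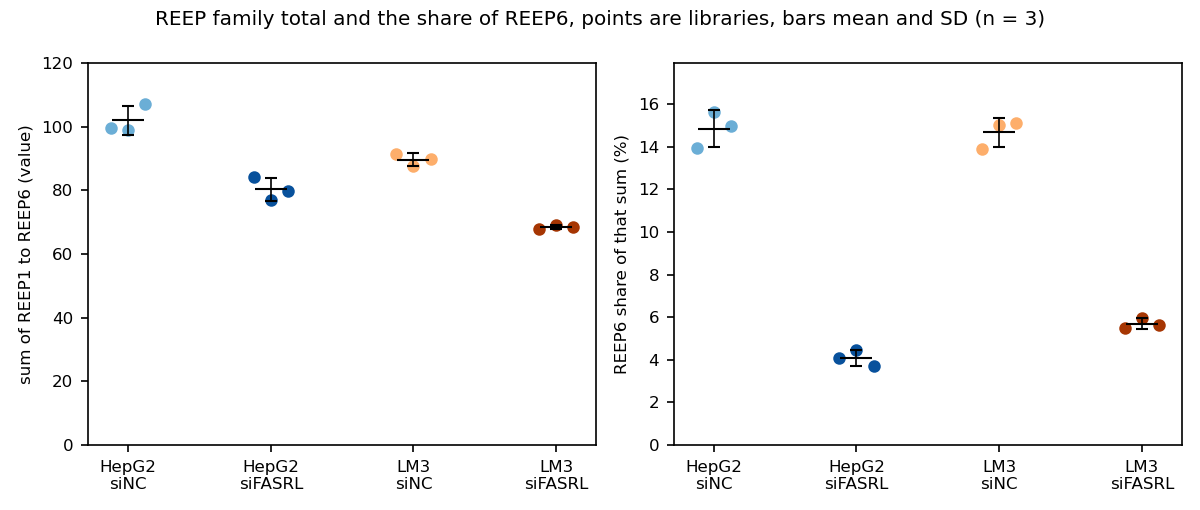
Left, summed value of REEP1 to REEP6 in each library; right, REEP6 as a percentage of that sum; points are libraries and bars show mean and SD (n = 3). The share of REEP6 is close to 14.8% in HepG2 siNC and 14.7% in LM3 siNC, and lies at 4.08% and 5.7% under siFASRL.

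LNPK was the member other than REEP6 with the largest decrease in HepG2. LNPK had values of 11.9, 11.5 and 10.6 in HepG2 siNC and 3.15, 3.44 and 3.49 in HepG2 siFASRL. In LM3 the values were 3.45, 3.25 and 3.36 under siNC and 1.53, 1.51 and 1.57 under siFASRL. The siFASRL libraries were low in both lines with no overlap, and the LM3 siNC libraries were already about as low as the HepG2 siFASRL libraries. In HepG2 29.8% of the control mean remained, and in LM3 45.8%, and the log2 difference was -1.49 (SE 0.06) in HepG2, rank 152 of 8144 from the most lowered, and -0.78 (SE 0.05) in LM3, rank 846 of 7483. In LM3 its place among the members depended on the scaling, since with quantile normalization LNPK was at -0.37 and RTN3 at -0.81.

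The atlastins differed by less than REEP6 in both lines. ATL2 had values of 17.0, 16.5 and 17.6 in HepG2 siNC and 17.5, 18.2 and 17.8 in HepG2 siFASRL, and in LM3 14.7, 13.95 and 14.3 under siNC and 16.3, 18.0 and 18.4 under siFASRL. ATL3 had values of 8.18, 7.75 and 7.65 in HepG2 siNC and 8.92, 8.92 and 9.18 in HepG2 siFASRL, and in LM3 12.4, 12.5 and 11.9 under siNC and 11.4, 11.2 and 11.2 under siFASRL. ATL2 overlapped between the HepG2 groups and was higher under siFASRL in LM3, by 0.28 (SE 0.06). ATL3 was higher in HepG2, by 0.18 (SE 0.05), and differed by -0.11 (SE 0.05) in LM3. The HepG2 value of ATL3 was 0.30 with quantile normalization, and 0.10 and no longer called with median-of-ratios scaling. The small differences depended on the scaling of the libraries: with median-of-ratios scaling that of ATL2 in HepG2 was -0.014 in place of 0.06, and with quantile normalization that of ATL3 in LM3 was 0.014.

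The reticulons were split. RTN4, known as Nogo and the most abundant of the 12 genes in every group, had values of 152, 149 and 158 in HepG2 siNC and 186, 172 and 181 in HepG2 siFASRL, and in LM3 127, 116 and 119 under siNC and 127, 124 and 129 under siFASRL. RTN3, which also serves as a receptor for the autophagy of ER tubules, had values of 78.5, 68.6 and 83.6 in HepG2 siNC and 61.0, 57.5 and 59.3 in HepG2 siFASRL, and in LM3 99.3, 87.8 and 86.8 under siNC and 52.1, 56.9 and 57.4 under siFASRL. RTN4 was therefore higher under siFASRL in HepG2, by 0.23 (SE 0.06; 0.14 with quantile normalization), and overlapped in LM3, where the difference was 0.08 (SE 0.05) and -0.030 with quantile normalization. RTN3 was lower in both lines without overlap, with differences of -0.37 (SE 0.08) in HepG2 and -0.71 (SE 0.07) in LM3. RTN2, a reticulon of muscle and nerve that was not among the members, had values of 13.7, 14.9 and 16.5 in HepG2 siNC and 8.59, 7.41 and 6.81 in HepG2 siFASRL, and in LM3 6.59, 5.58 and 6.07 under siNC and 2.67, 3.51 and 2.65 under siFASRL. RTN2 fell by 0.90 (SE 0.09) in HepG2 (limma, adjusted p = 1.01e-05) and by 0.85 (SE 0.09) in LM3 (limma, adjusted p = 4.85e-05), lower in 3 of 3 siFASRL libraries of each line, and with quantile normalization the LM3 value was -0.56.

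**Figure D3:**
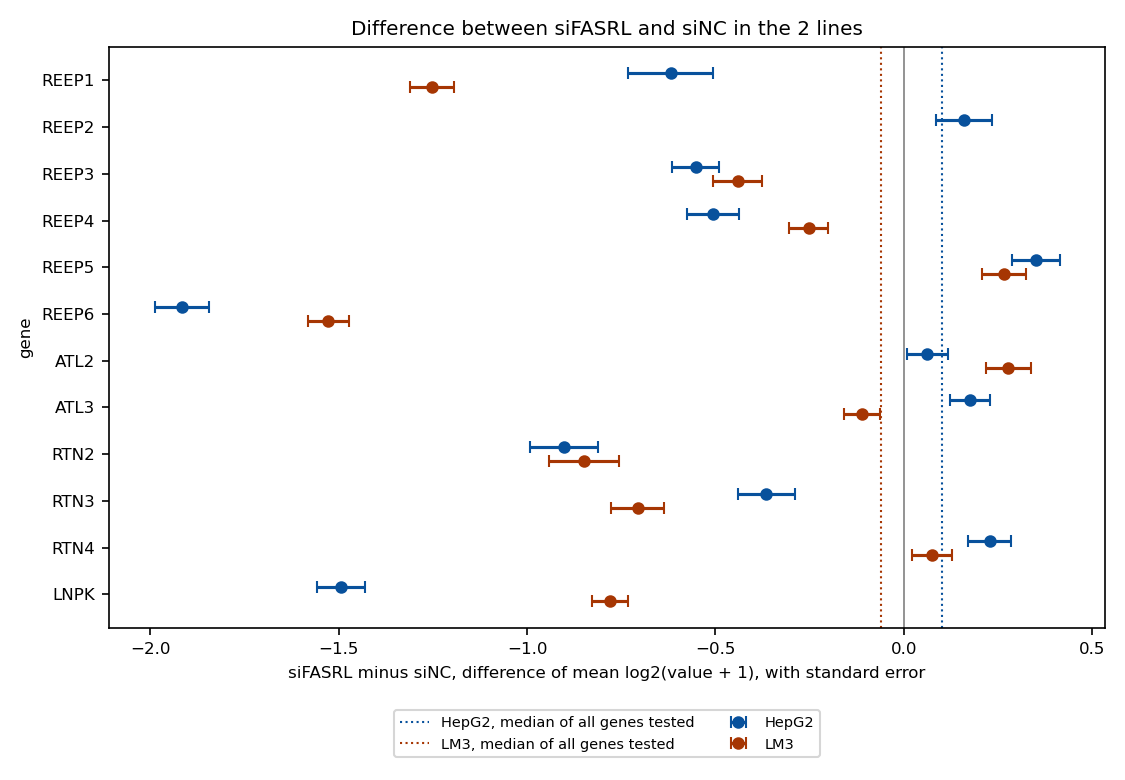
Difference of the mean log2(value + 1) between siFASRL and siNC (horizontal axis, bars are standard errors, n = 3 against 3) for the 12 family genes in HepG2 and LM3; dotted lines mark the median of all genes tested in each line, and REEP2 has no LM3 value. REEP6 lies farthest to the left in both lines, at -1.92 and -1.53, followed by LNPK in HepG2 at -1.49 and by REEP1 in LM3 at -1.25.

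Against the whole table, the count of members that differed is set beside the share of all genes that did. The choice of REEP6 had used these contrasts, so nothing is read from the counts. A gene was called at an adjusted p under 0.05 in the limma fit over all genes tested. In HepG2, 9 members other than REEP6 were tested: 4 were called lower (REEP3, REEP4, RTN3 and LNPK), where 44.3% of all genes tested were, and 3 were called higher (REEP5, ATL3 and RTN4), where 44.8% were. ATL3 was no longer called with median-of-ratios scaling, at 0.10, and REEP2, at 0.088 with that scaling and 0.089 without HepG2 siFASRL replicate 1, became called, at 0.16 in the fit of all 12 libraries, at 0.29 with quantile normalization, at 0.21 without HepG2 siFASRL replicate 2 and at 0.20 without HepG2 siNC replicate 3. The groups did not overlap for 7 of these 9 members and for 89.6% of all genes. With a log2 difference of at least 1 in addition, LNPK alone of the 9 was called lower, where 6.79% of all genes were, and 0 were called higher, where 3.61% were; 7 of the 9 had an unadjusted p under 0.05. The HepG2 shares rest on a table with few small decreases, since 5 of the 6367 genes with a mean of at least 5 had a log2 ratio between -0.20 and -0.04, against 578 of 5937 in LM3. How the listed genes were chosen is not stated. The shares, medians, ranks and adjusted p-values, in HepG2, in LM3 and between the lines, therefore hold for the listed genes only.

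In LM3, 8 members other than REEP6 were tested: 4 were called lower (the same REEP3, REEP4, RTN3 and LNPK), where 43.5% of all genes were, and 2 were called higher (REEP5 and ATL2), where 33.9% were. The groups did not overlap for 7 of the 8 members and for 80.1% of all genes. With the log2 difference of at least 1, 0 of the 8 were called lower, where 6.2% of all genes were, and 0 higher, where 1.42% were, while 7 had an unadjusted p under 0.05 in limma. With a pseudocount of 0.1, LNPK was at -1.08 and called lower with this threshold as well. Without LM3 siNC replicate 1, RTN4 was called higher, at 0.11. In the fit of all 12 libraries and in the fit with no filter, ATL3 was called lower, at -0.11, which made 5 members called lower. The median log2 difference of the members other than REEP6 was 0.06 in HepG2 and -0.18 in LM3, beside 0.10 and -0.06 over all genes tested. The LM3 median of the members lacks REEP2, and over the 8 members tested in both lines the HepG2 median was -0.15. The medians over all genes depended on the scaling. They were 0.026 in HepG2 with median-of-ratios scaling and 0.029 in LM3 with quantile normalization.

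The lines were also compared under the control siRNA, a contrast other than the knockdown contrasts that had chosen REEP6, although its siNC values had entered those and it is therefore described here with no test. In HepG2 siNC the order from the highest was RTN4, RTN3, REEP4, REEP3, REEP5, ATL2, REEP6, RTN2, LNPK, REEP2, ATL3 and REEP1, in which the libraries of REEP3 and REEP5, of REEP6 and RTN2, and of REEP2 and ATL3 overlapped. In LM3 siNC the order was RTN4, RTN3, REEP4, REEP5, REEP3, ATL2, REEP6, ATL3, REEP1, RTN2, LNPK and REEP2, in which REEP5 and REEP3 overlapped. REEP6 thus held place 7 in both lines. Under siFASRL it was at place 11 in HepG2, where it overlapped LNPK, and at place 8 in LM3.

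REEP6 differed little between the lines under siNC. Its LM3 value minus that of HepG2 was -0.19 (SE 0.07) on the log2 scale and -0.15 with quantile normalization, and every LM3 library was below every HepG2 library. The difference of LNPK was -1.50 (SE 0.06, limma, adjusted p = 8.29e-08) and that of RTN2 -1.18 (SE 0.08, adjusted p = 2.54e-06). REEP1 was higher in LM3 by 2.06 (SE 0.06, limma, adjusted p = 1.18e-08), and ATL3 by 0.58 (SE 0.05, adjusted p = 1.49e-05). REEP2 entered this comparison through HepG2 alone, where it was high, so its difference had to be large and it is left out of the counts.

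Of the 8 members other than REEP6 and REEP2, 5 were called lower in LM3 than in HepG2 under siNC (REEP3, REEP5, ATL2, RTN4 and LNPK), where 40.6% of all genes tested were, and 2 were called higher (ATL3 and RTN3), where 40.4% were. With a log2 difference of at least 1, 1 was called lower (LNPK), where 15.6% of all genes were, and 0 higher, where 7.74% were, while 7 had an unadjusted p under 0.05. The groups did not overlap for 7 of the 8 and for 82.3% of all genes. REEP4 differed by 0.05 (SE 0.06, adjusted p = 0.406) and by -0.023 with median-of-ratios scaling. RTN3, at 0.25 (SE 0.09, adjusted p = 0.0291), was no longer called without HepG2 siNC replicate 1 (0.26), HepG2 siNC replicate 2 (0.17) or LM3 siNC replicate 1 (0.19), nor with median-of-ratios scaling (0.17) or quantile normalization (0.14).

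Whether the knockdown difference itself depended on the line was fitted over all 12 libraries. REEP2, near 0 in every LM3 library, entered this fit through HepG2 alone and is left out. Of the 8 members other than REEP6 and REEP2, 5 were called in either direction, where 46.7% of all genes tested were. These were REEP4, ATL2, ATL3, RTN3 and LNPK. The calls of REEP4 (0.25) and ATL2 (0.21) were lost with a replicate block, and also when certain single libraries were left out. LNPK was lowered less in LM3 than in HepG2, by 0.72 (SE 0.07, limma, adjusted p = 5.16e-06), and RTN3 more, by -0.34 (SE 0.11, adjusted p = 0.0186). REEP3 gave 0.11 (SE 0.09, adjusted p = 0.334) and REEP5 -0.08 (SE 0.08, adjusted p = 0.422), so no dependence on the line was called for either, although REEP3 was called with quantile normalization (0.27). The same scaling gave 1.19 for LNPK and added calls for RTN4 (-0.19) and, outside the members, RTN2 (0.38). For REEP6 the difference between the lines was 0.39 (SE 0.09), with no test, because both contrasts had chosen it, and 0.77 with quantile normalization. RTN3 was no longer called without LM3 siFASRL replicate 1 (-0.30), with median-of-ratios scaling (-0.25) or with quantile normalization (-0.25).

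In all, 7 further lists of ER genes, with 84 genes of which 69 were listed and tested, gave the surroundings of these members. In HepG2 34 of the 69 fell and 29 rose, and in LM3 37 fell and 18 rose (limma, adjusted p under 0.05), with medians of 0.01 and -0.26 beside 0.10 and -0.06 over all genes. Of all genes tested 44.3% were called lower and 44.8% higher in HepG2, and 43.5% and 33.9% in LM3, and the counts of each list below are to be held to these shares. Only the genes named by the rule in the methods are given with values.

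Among genes that link tubules to microtubules or bend membranes, 4 of 7 fell and 2 rose in HepG2, and 5 fell and 2 rose in LM3. ARL6IP1, a small hairpin protein that bends ER membrane as REEP and reticulon proteins do, had a mean of 109 ± 4.61 (SD, n = 3) in HepG2 siNC and 49.8 ± 2.14 in HepG2 siFASRL, and of 110.3 ± 8.85 and 56.3 ± 4.47 in LM3. ARL6IP1 fell by 1.11 (SE 0.06, limma, adjusted p = 2.35e-07) in HepG2 and by 0.96 (SE 0.08, adjusted p = 9.79e-06) in LM3, in 3 of 3 libraries each. The kinesin KIF1C rose by 1.24 (SE 0.06, adjusted p = 1.12e-07) in HepG2, from 24.5 to 59.4, and by 0.28 (SE 0.05, adjusted p = 0.000723) in LM3, from 48.5 to 59.3.

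Of the 15 junction and fusion partners listed beside LNPK, which include RAB proteins, their regulators and SNAREs of the ER, 3 fell and 11 rose in HepG2, and 3 fell and 8 rose in LM3, where of all genes 44.3% were called lower and 44.8% higher in HepG2, and 43.5% and 33.9% in LM3. ZW10, a tether of vesicles at the ER that also acts at kinetochores, rose from 3.99 ± 0.183 (SD, n = 3) to 10.9 ± 0.481 in HepG2, by 1.25 (SE 0.06, adjusted p = 1.12e-07), and from 6.03 ± 0.748 to 12.1 ± 0.672 in LM3, by 0.90 (SE 0.08, adjusted p = 1.84e-05). The median of this list without LNPK was 0.36 in HepG2 and 0.22 in LM3, beside 0.10 and -0.06 over all genes.

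Of 7 genes of ER sheets, 3 fell and 3 rose in HepG2, and 4 fell and 1 rose in LM3. The phosphatidate phosphatase LPIN1 fell from 6.79 ± 0.58 (SD, n = 3) to 3.27 ± 0.01 in HepG2, by 0.86 (SE 0.06, limma, adjusted p = 1.67e-06), and from 10.6 ± 0.759 to 3.86 ± 0.304 in LM3, by 1.25 (SE 0.07, adjusted p = 1.35e-06). Of 5 receptors of ER autophagy, 2 fell and 2 rose in HepG2, and 3 fell in LM3. None of the 5 was called with a log2 difference of at least 1 by limma in either line, while 4 had an unadjusted p under 0.05 in each. Over all genes tested, that threshold called 6.79% lower and 3.61% higher in HepG2, and 6.2% and 1.42% in LM3. The most abundant of them, CCPG1, went from 26.4 to 28.3 in HepG2 (0.10, adjusted p = 0.174) and fell from 33.8 to 28.1 in LM3, by 0.26 (SE 0.07, adjusted p = 0.0104).

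Of 12 genes of ER contact sites, 6 fell and 4 rose in HepG2, and 8 fell and 1 rose in LM3, beside shares over all genes of 44.3% lower and 44.8% higher in HepG2 and 43.5% and 33.9% in LM3. A pair of related membrane proteins of this list moved apart: MOSPD1 rose from 15.5 to 35.0 in HepG2 (1.12, SE 0.07, adjusted p = 4.71e-07) and from 7.86 to 15.4 in LM3 (0.88, SE 0.07, adjusted p = 8.45e-06), whereas MOSPD3 fell from 15.1 to 9.56 in HepG2 (-0.61, SE 0.10, adjusted p = 0.000223) and from 19.6 to 8.84 in LM3 (-1.06, SE 0.07, adjusted p = 3.75e-06). Of 10 genes of lipid droplet formation, 6 fell and 4 rose in HepG2, and 5 fell and 3 rose in LM3. AUP1, found on the ER and on lipid droplets, rose from 50.3 to 118 in HepG2 (1.22, SE 0.07, adjusted p = 2.58e-07) and from 48.2 to 103 in LM3 (1.08, SE 0.05, adjusted p = 9.62e-07).

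Of 13 chaperones and stress genes of the ER, 10 fell and 3 rose in HepG2, and 9 fell and 3 rose in LM3, where all genes gave 44.3% lower and 44.8% higher, and 43.5% and 33.9%. The genes that rose were the transcription factors ATF4, DDIT3 and ATF3 in both lines, and the other 10 fell in HepG2, as did 9 of them in LM3. XBP1, also a transcription factor, was among the genes that fell in both lines. PDIA4 fell from 71.2 to 35.5 in HepG2 (-0.98, SE 0.06, adjusted p = 3.22e-07) and from 68.1 to 27.5 in LM3 (-1.28, SE 0.05, adjusted p = 3.65e-07), and PDIA6 from 222 to 97.9 (-1.17, SE 0.06, adjusted p = 1.35e-07) and from 139 to 83.4 (-0.73, SE 0.05, adjusted p = 3.77e-06). ATF4 rose from 134 to 282 in HepG2 (1.06, SE 0.06, adjusted p = 2.72e-07) and from 133 to 218 in LM3 (0.72, SE 0.06, adjusted p = 8.18e-06), and ATF3 from 4.56 to 9.46 (0.91, SE 0.07, adjusted p = 2.25e-06) and from 9.69 to 30.1 (1.54, SE 0.07, adjusted p = 4.67e-07).

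**Figure D4:**
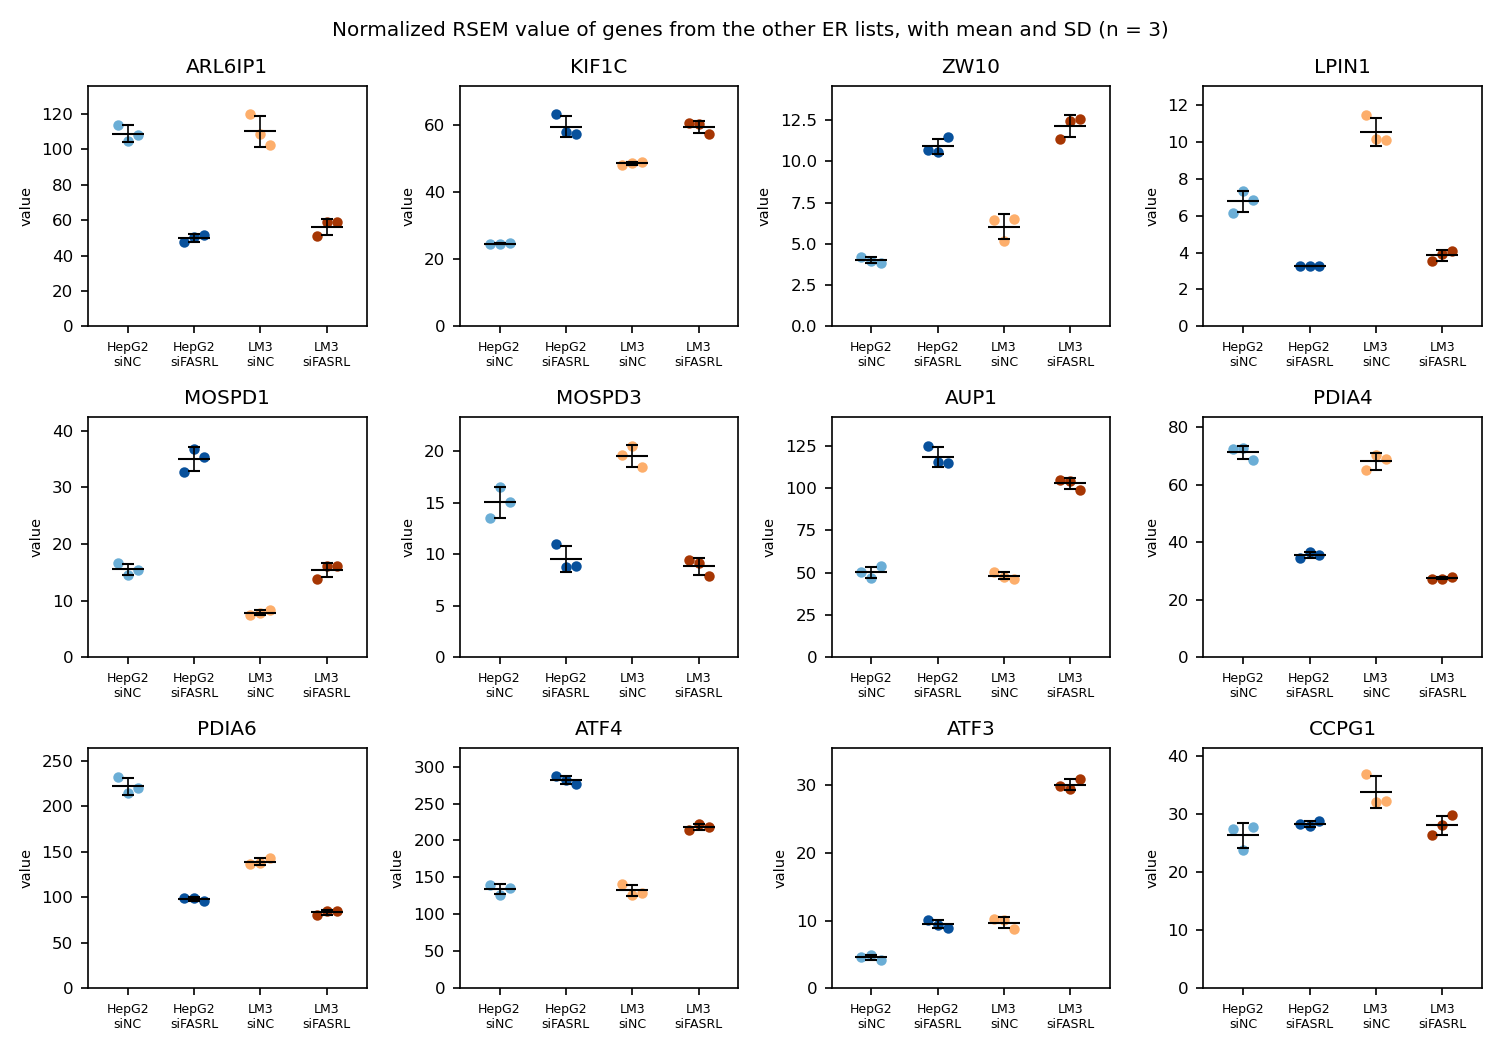
Normalized RSEM value (vertical axis, starting at 0) in each library of the 12 genes named from the other ER lists; points are libraries and bars show mean and SD (n = 3). ARL6IP1, LPIN1, PDIA4 and PDIA6 are lower under siFASRL in both lines, and ZW10, MOSPD1, AUP1, ATF4 and ATF3 are higher.

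The genes whose profile over the 12 libraries lay nearest to that of REEP6 came from outside these lists. Nearness was the mean absolute distance between centred log2(value + 1) profiles, computed for 8284 genes, with a median of 0.909. Among the nearest were DHTKD1 (0.112), a mitochondrial enzyme of lysine breakdown, the kinase UHMK1 (0.12), SMPD1 (0.122), the acid sphingomyelinase of lysosomes, and the kinase MINK1 (0.133). DHTKD1 had a mean of 16.7 ± 0.906 (SD, n = 3) in HepG2 siNC and 3.73 ± 0.087 in HepG2 siFASRL, and of 18.1 ± 0.466 and 4.78 ± 0.259 in the same groups of LM3. Of the family genes, LNPK was the nearest at place 1057 (0.572), followed by RTN2 at 1145 (0.58), RTN3 at 1264 (0.593) and REEP3 at 1469 (0.613), while REEP5 was at place 5765 (1.02).

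Of the neighbours of REEP6 on the chromosome, PCSK4 was also lower under siFASRL, at far lower values. PCSK4, which lies on the opposite strand and overlaps the annotated start of REEP6 by 6 bases, had values of 0.98, 1.22 and 1.02 in HepG2 siNC and 0.55, 0.65 and 0.57 in HepG2 siFASRL, and in LM3 0.30, 0.56 and 0.33 under siNC and 0.26, 0.29 and 0.17 under siFASRL. PCSK4 did not overlap between the groups of either line. PCSK4 was too low to be tested, and reads over the 6 shared bases cannot be told apart. The next gene on that side, C19orf25, had a mean of 4.24 ± 0.732 (SD, n = 3) in HepG2 siNC and 4.94 ± 0.358 in HepG2 siFASRL, and of 7.41 ± 1.49 and 9.0 ± 0.508 in LM3, with no call in either line (limma, adjusted p = 0.0954 and 0.0743). With quantile normalization C19orf25 was called higher in both lines, at 0.41 and 0.45, and with median-of-ratios scaling in LM3, at 0.30. When 1 library was left out its difference ran from 0.078 to 0.28 in HepG2, called without HepG2 siNC replicate 2, and from 0.11 to 0.35 in LM3, called without LM3 siNC replicate 2. Of the 31-base words in the annotated transcripts of REEP6, 0 of 2450 occurred on the same strand in a transcript of another gene. For RTN3 12.2% of such words occurred in other genes, and for each of the other family genes 4.06% or less. Exons on the opposite strand, as for REEP5 and RTN2, are not part of these shares. REEP3 shares its start region with JMJD1C on the opposite strand, without a shared exon base. RTN2 overlaps PPM1N, not analysed here, with 203 shared exon bases.

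The promoters of the strongly lowered relatives of REEP6 are shown for the short motifs that a search of both strands found in them. RefSeq windows of 250 bases before and 50 after each start (GRCh38.p14) were available for 10 of the 12 genes. The motifs were the E-box CACGTG, bound by USF1 and MYC among others, the CCAAT box and the GC box GGGCGG, which 7.26%, 34.6% and 45% of all 35116 windows contain. The window of REEP6 held 4 CCAAT boxes, 4 GC boxes and no E-box, and is not printed because another annotation places it inside the first exon. The stretches outside annotated exons are, before the annotated start of the gene, for LNPK at chr2:176002840-176003070, REEP1 at chr2:86338084-86338333 and RTN2 at chr19:45497062-45497297, and, before a start inside the gene, for REEP1 at chr2:86337655-86337876, all on the minus strand, printed 5′ to 3′ with motif matches in capitals, where in the inner stretch of REEP1 a GC box and a CCAAT box overlap and in RTN2 2 GC boxes do:
LNPK: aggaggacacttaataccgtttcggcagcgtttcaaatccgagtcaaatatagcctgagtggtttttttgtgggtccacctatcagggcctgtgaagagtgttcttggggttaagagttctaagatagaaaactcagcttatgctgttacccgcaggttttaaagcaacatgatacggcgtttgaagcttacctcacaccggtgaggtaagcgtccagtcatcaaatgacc
REEP1: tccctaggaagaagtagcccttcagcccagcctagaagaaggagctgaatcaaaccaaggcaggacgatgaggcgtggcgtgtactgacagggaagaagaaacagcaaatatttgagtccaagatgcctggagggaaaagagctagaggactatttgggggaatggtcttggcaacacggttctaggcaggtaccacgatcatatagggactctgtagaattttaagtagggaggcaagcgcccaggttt
REEP1, inner start: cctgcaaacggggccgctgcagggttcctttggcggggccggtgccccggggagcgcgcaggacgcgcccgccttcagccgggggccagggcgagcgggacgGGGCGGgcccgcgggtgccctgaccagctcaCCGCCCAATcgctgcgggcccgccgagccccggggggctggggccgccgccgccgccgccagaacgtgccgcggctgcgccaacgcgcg
RTN2: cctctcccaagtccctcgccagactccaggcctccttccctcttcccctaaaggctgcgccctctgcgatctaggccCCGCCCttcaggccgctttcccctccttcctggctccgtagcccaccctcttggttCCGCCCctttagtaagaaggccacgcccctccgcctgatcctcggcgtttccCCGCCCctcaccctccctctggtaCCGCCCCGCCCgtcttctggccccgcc
The whole 300-base windows behind the stretch of LNPK and the outer stretch of REEP1 held none of the motifs. The window of the inner start of REEP1 held 3 GC boxes and 1 CCAAT box, and that of RTN2 held 8 GC boxes and no other motif. LNPK had 2 further windows, which start farther inside the gene and overlap each other, and both held the same E-box, the same 2 CCAAT boxes and the same 2 GC boxes, and 1 of them a further GC box. RTN2 had 1 further window, with 3 CCAAT boxes and no other motif. A match is a run of letters and not a measured binding site.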

How the data were processed

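Per the labels, mRNA was purified with oligo(dT) beads and sequenced on a BGISEQ-500. The authors filtered reads with SOAPnuke 1.5.2, mapped them with HISAT2 2.0.4, aligned them to coding genes with Bowtie2 2.2.5 and computed values with RSEM 1.2.12. The deposited values have 2 decimals, and whether they are FPKM or TPM is not given in the sources used here. The labels name hg19, whereas the deposited chromosome accessions are those of GRCh38; positions here come from GENCODE v29 and RefSeq. Of the gene IDs, 8790 of 8842 were found in RefSeq, and 17 symbols turned into dates were restored by ID. The authors' DESeq2 comparisons were not used.

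Tested were genes that reached 1 in 3 or more libraries of a comparison, by limma 3.58.1 (R 4.3.3) on log2(value + 1), with Benjamini-Hochberg adjustment; tables and figures were made in Python 3.11.15. The 6 LM3 columns repeated in other tables were identical to the libraries' own. The threshold for a call with fold, as in the study, was an adjusted p under 0.05 and an absolute log2 difference of at least 1. The procedure was tested on simulated data. Alternatives were other pseudocounts (0.1 and 0.5), no filter, other scalings, a replicate block, 1 fit of 12 libraries, a variance trend and leaving out each library. Named genes were the members, other listed family genes, up to 4 genes per list past the threshold or else the most abundant, the 5 profiles nearest to REEP6 (1 of which is not reported here), its neighbours and 5 hepatocyte markers; HNF4A, SRP19 and JMJD1C were added after their values were seen. Members and lists were chosen with earlier results of these data known.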

Additional observations from a re-analysis of the deposited data

Results flagged for a closer look

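Between LM3 and HepG2 the knockdown difference differed for 6 of the 11 family genes other than REEP6, where 46.7% of all genes did. The 11 include REEP2, which entered this fit through HepG2 alone and was not called, so no result is read from this count. Of the 8 members other than REEP6 and REEP2, 2 were called with a negative and 3 with a positive difference. The test was the limma interaction fitted over all 12 libraries. On the log2 scale, as LM3 minus HepG2, it was 0.72 for LNPK (adjusted p = 5.16e-06), -0.63 for REEP1 (adjusted p = 0.00244), -0.34 for RTN3 (adjusted p = 0.0186), -0.29 for ATL3 (adjusted p = 0.00208), 0.25 for REEP4 (adjusted p = 0.0261) and 0.21 for ATL2 (adjusted p = 0.031). LNPK, RTN3 and REEP4 were lower under siFASRL in both lines and differed in size. ATL3 was higher in HepG2 and had a negative difference in LM3, not called in LM3 alone with the filter on low values, and called with no filter or in the fit of all 12 libraries. REEP1 passed the filter in HepG2 through siNC alone, with values near 1 there, so its difference between the lines rests on low values: 42.0% of the control mean remained in HepG2 and 35.7% in LM3, and the call was lost with a pseudocount of 0.1 (-0.25). The call of RTN3 was lost without LM3 siFASRL replicate 1 (-0.30), with median-of-ratios scaling (-0.25) and with quantile normalization (-0.25). That of REEP4 was lost without HepG2 siFASRL replicate 2 (0.22) or 3 (0.23), HepG2 siNC replicate 3 (0.22), LM3 siFASRL replicate 1 (0.25) or 2 (0.24), or LM3 siNC replicate 2 (0.23). That of ATL2 was lost without HepG2 siFASRL replicate 1 (0.20) or 3 (0.21), HepG2 siNC replicate 1 (0.21) or 3 (0.19), LM3 siFASRL replicate 2 (0.20) or 3 (0.18), or LM3 siNC replicate 2 (0.20) or 3 (0.21). With a replicate block the calls of REEP4 (0.25) and ATL2 (0.21) were lost as well. The cause of these differences between the lines was not tested.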

How the results depend on the processing

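The number of genes past the threshold with fold was 847 in HepG2, 570 in LM3, 1911 between the lines under siNC and 401 for the dependence on the line. With a pseudocount of 0.1 it was 1373, 900 and 664 for HepG2, LM3 and the dependence on the line, and by adjusted p alone it was 7257, 5790, 6618 and 3868. The smaller pseudocount widens differences of low genes by its construction. The REEP6 difference was -2.18 and -2.05 in HepG2 with a pseudocount of 0.1 and 0.5 and -1.79 with quantile normalization, and -1.73, -1.63 and -1.32 in LM3. As a log2 ratio of group means, chosen after seeing the data, it was -2.21 and -1.75. Leaving out 1 library gave -1.97 to -1.86 in HepG2, -1.56 to -1.50 in LM3 and, between the lines under siNC, -0.25 to -0.15, and quantile normalization gave -0.15 there.

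Of single genes, these values changed sign: ATL2 in HepG2 with median-of-ratios scaling (-0.014); in LM3 with quantile normalization ATL3 (0.014), RTN4 (-0.030) and JMJD1C (0.098), the last also with median-of-ratios scaling (0.013) and between -0.066 and 0.036 when 1 library was left out; between the lines REEP4 with median-of-ratios scaling (-0.023); and for the dependence on the line REEP5 with median-of-ratios scaling (0.0021) and RTN2 with a pseudocount of 0.1 (-0.052) and between -0.047 and 0.13 when 1 library was left out. None of these was called in the main setting, and the cause was not tested. Of 356 values of family genes under settings other than leaving out a library, 321 were unchanged: they kept direction and side of the threshold or, for untested REEP6 values, stayed within 1 SD. A further 9, all of REEP6, kept direction and moved by more than that, while 10 lost a call, 10 gained one and 6 changed sign. Of 348 values with 1 library left out, 318 were unchanged, 22 lost a call, 5 gained one and 3 changed sign. The lost calls of both tallies include values of REEP6 between the lines under siNC. These were counted by their limma call, although REEP6 is described here with no test. Quantile normalization moved the median of all genes between the lines from 0.003 to 0.15, and the share of lower genes among those past the threshold from 65.3% to 52.5% in HepG2, from 81.4% to 61.5% in LM3 and from 66.9% to 51.3% between the lines. Median-of-ratios scaling gave shares of 74.6%, 78.2% and 72.3%, and a median between the lines of -0.068.

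Whether the replicate numbers pair the libraries could not be settled with 3 libraries per group. Same-numbered siFASRL and siNC libraries correlated at 0.319, 0.371 and -0.20 in HepG2, and differently numbered ones at -0.46 to 0.297. In LM3 the same-numbered libraries correlated at -0.080, 0.118 and -0.17, and differently numbered ones at -0.124 to 0.187. A fit with a replicate block put 847 genes past the threshold in HepG2 and 570 in LM3. The calls of REEP4 and ATL2 for the dependence on the line were lost and that of C19orf25 in HepG2 gained. Depth is unknown, so what it limits could not be given.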
